A study of Homo sapiens with 12 samples.

Results

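Advanced glycation end products (AGEs) at 0.05 µg/mL were set against bovine serum albumin (BSA) at 0.05 µg/mL, each given for 24 h, in neutrophil-like cells made from HL-60. HL-60 is a human promyelocytic leukaemia line, so every library comes from 1 line grown with foetal bovine serum. The comparison takes 6 of the 12 libraries of the series, 3 with AGEs and 3 with BSA. It covers all 9751 genes, of 10465 rows, with at least 1 FPKM in at least 3 of the 12 libraries. FPKM expresses a gene's fragments relative to its length and to all mapped fragments of the library, and since no read counts were used the depth is unknown. The other groups, also of 3 libraries and 24 h, received AGEs together with 30 mmol/L D-glucose, or 30 mmol/L D-glucose with no BSA named in its label. The labels name neither the protein that carried the AGEs nor the agent that differentiated the cells. They also do not say whether libraries of a group are separate cultures, and the spread behind the p-values may be technical. In bulk RNA, fewer cells of a type and less RNA per cell cannot be told apart.

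AGEs form when sugars and their breakdown products react with proteins without an enzyme, and they build up in diabetes. They bind the receptor RAGE, encoded by AGER, which also takes HMGB1 and S100 proteins as ligands and can signal to NF-kappaB and to the phagocyte NADPH oxidase. Neutrophils live largely on glycolysis, and the hypoxia-inducible factor HIF-1 drives many of the genes for glucose entry, glycolysis and for keeping pyruvate out of mitochondria.

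The labelled cell type was checked against marker genes. Of 15 neutrophil markers 10 were measured, among them the integrin subunits ITGAM and ITGB2, the oxidase subunit CYBB and the formyl peptide receptor FPR1. Their summed level was 1152 to 1199 FPKM in the AGEs libraries and 1144 to 1201 FPKM in the BSA libraries. FCGR3B, CXCR1, MMP9, CD177 and MME had no row under these symbols among the 10465, so these 5 neutrophil markers were not found. Promyelocyte and blast markers, 11 of 12 measured, summed to 736 to 908 FPKM with AGEs and 821 to 869.6 FPKM with BSA. Eosinophil and basophil markers, 10 of 18 measured, summed to 2448 to 2611 FPKM with AGEs and 2203 to 2485 FPKM with BSA, and 9 of the 10 had a fold change above 0. The groups overlapped in all 3 sums. In the mean log2 deviation over the 10 eosinophil and basophil markers, which weights each gene alike, they did not: it was -0.02, 0.03 and -0.05 in the AGEs libraries and -0.14, -0.18 and -0.08 in the BSA libraries. The 3 measured T and NK cell markers were also separate on this scale, at 0.04, 0.13 and 0.23 with AGEs and -0.02, -0.04 and -0.03 with BSA. The part of any of these cells in the gene results was not tested.

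AGEs 1 stood apart from AGEs 2 and 3. Its limma library weight, which falls as a library strays from its group, was 0.181, the lowest of the 12. Glucose 3 had 0.418, and the other 10 libraries had 0.797 to 1.823. Across genes, log2 values correlated at r = 0.972 between AGEs 1 and 2, 0.973 between AGEs 1 and 3 and 0.986 between AGEs 2 and 3 (genes are not independent replicates). AGEs 1 was the library farthest from its group's median in 57.4% of genes, and glucose 3 in 49.4%. Its FPKM sum of 226233 was within the range of the 12 libraries, 220444 to 233854.

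**Figure D1:**
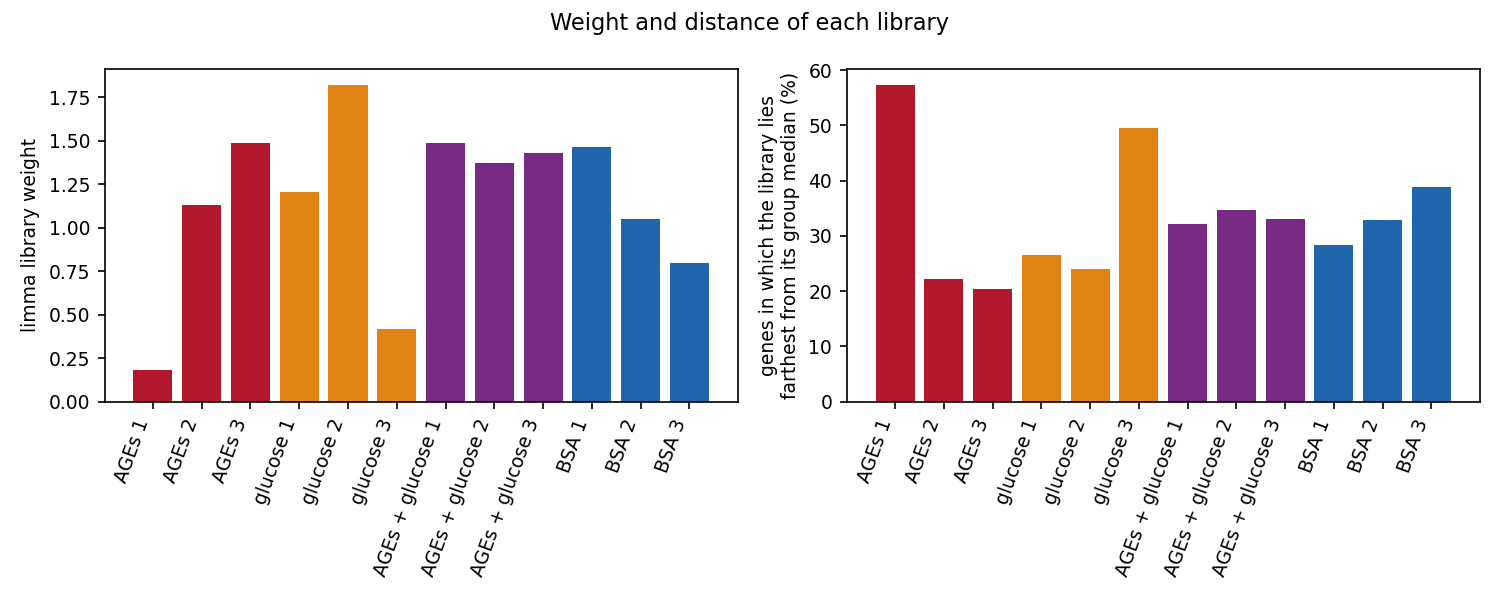
Limma weight of each of the 12 libraries (left) and the percent of genes in which the library lies farthest from its group's median (right), bars from 0. AGEs 1 has the lowest weight, 0.181, and the highest share, 57.4%.

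Few single genes differed. TDG and ATP2B4 were higher with AGEs and NDRG1 was lower, in limma with Benjamini-Hochberg adjustment at a threshold of 0.05. That is 2 genes higher (0.0205% of those tested) and 1 lower (0.0103%). An unadjusted p under 0.05 was reached by 266 genes higher with AGEs (2.73%) and 196 lower (2.01%). In both directions that is 462 genes (4.74%), and 488 would be expected if no gene differed. The AGEs and BSA libraries did not overlap in 470 genes higher (4.82%) and 388 lower (3.98%). With 3 libraries a group, genes that do not differ also separate often, so a gap between the groups alone does not mark a change. Over all genes the median log2 fold change was -0.0017, with 4824 genes above 0.

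TDG is the thymine DNA glycosylase, which removes thymine and oxidised methylcytosine from DNA in base excision repair and active demethylation. It stood at 15.3, 16.6 and 16.1 FPKM in the AGEs libraries, against 6.86, 8.13 and 8.66 FPKM in the BSA libraries. Every AGEs library was above every BSA library. TDG averaged 16.0 ± 0.647 FPKM with AGEs and 7.89 ± 0.924 FPKM with BSA (SD, n = 3 each), and it rose by 0.94 ± 0.08 (SE) on the log2(FPKM + 1) scale (limma adjusted p = 0.000955). All fold changes below are on this scale, which understates the change of genes at low levels. TDG was also high in the other stimulated groups, at 17.9 ± 0.371 FPKM with glucose alone and 16.5 ± 0.891 FPKM with AGEs and glucose. The difference of AGEs from glucose alone was -0.15 ± 0.08 (SE; adjusted p = 0.59), and from AGEs with glucose -0.04 ± 0.08 (adjusted p = 0.984). Neither passed.

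ATP2B4 encodes a plasma membrane pump that exports calcium from the cell. Its values were 46.9, 43.3 and 45.1 FPKM with AGEs and 24.1, 24.9 and 20.9 FPKM with BSA, with no overlap. It rose to 45.1 ± 1.82 FPKM with AGEs, against 23.3 ± 2.12 FPKM with BSA (SD, n = 3 each; log2 fold change 0.93 ± 0.08 SE, adjusted p = 0.000955). The groups that received glucose stood near BSA, at 20.8 ± 1.80 FPKM with glucose alone and 21.6 ± 0.707 FPKM with AGEs and glucose. Here the differences themselves passed, with 1.09 ± 0.08 for AGEs against glucose alone (adjusted p = 0.000368) and 1.03 ± 0.08 for AGEs against AGEs with glucose (adjusted p = 0.000652). ATP2B4 was 1 of 4 genes called between AGEs and glucose alone (0.041% of those tested). It was the only gene called between AGEs and AGEs with glucose (0.0103%).

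NDRG1, a stress gene that responds to low oxygen, had 22.6, 21.7 and 21.8 FPKM with AGEs and 30.7, 30.0 and 29.04 FPKM with BSA. Its AGEs libraries lay within 1 FPKM of each other and below every BSA library. It fell to 22.0 ± 0.532 FPKM with AGEs, against 29.9 ± 0.810 FPKM with BSA (SD, n = 3 each; log2 fold change -0.42 ± 0.06 SE, adjusted p = 0.037). NDRG1 stood at 24.6 ± 0.889 FPKM with glucose alone and 24.9 ± 0.889 FPKM with AGEs and glucose, and the differences of AGEs from these groups did not pass (adjusted p = 0.442 and 0.984). The call was the least firm of the 3: it was kept in 2 of 12 fits that left out 1 library (without AGEs 1 and without glucose 3), with an adjusted p of up to 0.193. TDG and ATP2B4 were called in all 12 of those fits.

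**Figure D2:**
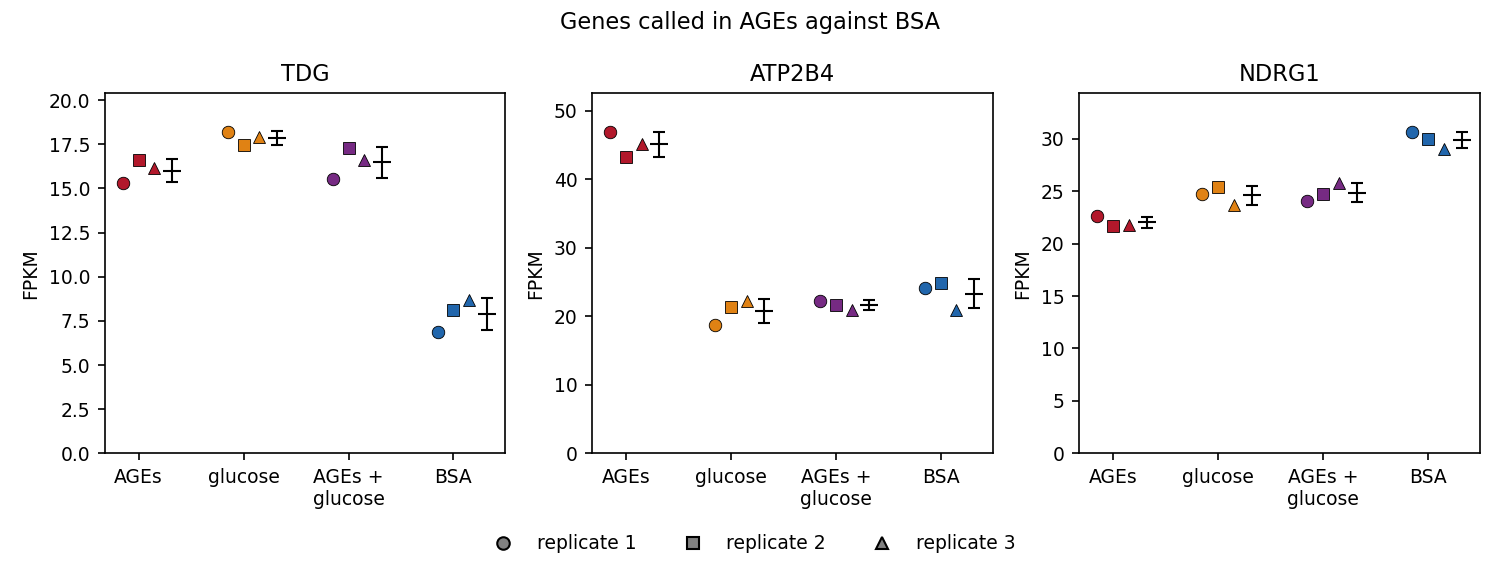
FPKM of TDG, ATP2B4 and NDRG1 in each of the 12 libraries, by group, with the mean and SD of 3 libraries beside the points. TDG is high in all 3 stimulated groups, ATP2B4 is high with AGEs alone (43.3 to 46.9 FPKM), and NDRG1 is lowest with AGEs alone (21.7 to 22.6 FPKM).

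NDRG1 belongs to a list of 36 HIF-1 target entries, of which 25 were tested (ERO1A stands under both its symbols). EGLN3 was below the filter, and the rest had no row under the symbols listed. In 22 of the 25 the fold change was below 0, with a median of -0.23 against -0.0017 over all genes. At an unadjusted p under 0.05, 10 members were lower (2.01% of all genes were) and 0 higher, and in 12 the groups did not overlap with AGEs lower (3.98% of all genes). NDRG1 was the 1 member called, and it is in each of these counts. The list was chosen with earlier results of these data known, so the counts do not test it. Averaged over the 25 members, the log2 deviation from the mean of the 12 libraries was -0.12, -0.20 and -0.04 in the AGEs libraries and 0.07, 0.15 and 0.12 in the BSA libraries. All 3 AGEs libraries were thus below all 3 BSA libraries. The deviation was -0.04, 0.07 and 0.02 with glucose alone and 0.02, -0.01 and -0.04 with AGEs and glucose. AGEs 3 was within the range of both of these groups. The median of the same members was -0.07 for glucose alone and -0.09 for AGEs with glucose, each against the same BSA libraries.

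Several members of this list make or regulate the steps of glucose use. SLC2A3, a high-affinity glucose transporter of white blood cells, had 37.8, 35.8 and 36.3 FPKM with AGEs and 43.4, 46.1 and 45.7 FPKM with BSA (log2 fold change -0.29 ± 0.05 SE, adjusted p = 0.151). The groups did not overlap, but the near-identical gene SLC2A14 can share its reads. ALDOC, an aldolase of glycolysis, had 13.7, 11.6 and 11.3 FPKM with AGEs and 17.4, 17.8 and 16.6 FPKM with BSA (-0.47 ± 0.07 SE, adjusted p = 0.0992). AGEs 1 was the library nearest to BSA, and without it ALDOC passed (adjusted p = 0.00247). PFKFB4, which sets the level of a strong activator of phosphofructokinase, had 10.1, 8.20 and 8.62 FPKM with AGEs and 11.4, 12.4 and 11.6 FPKM with BSA (-0.37 ± 0.08 SE, adjusted p = 0.408). Its groups did not overlap, and AGEs 1 again lay nearest to BSA. PFKFB4 shares exonic positions with UCN2.

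Members with other roles were named after their values were seen. P4HA1, a collagen prolyl hydroxylase subunit, had 41.9, 49.9 and 49.3 FPKM with AGEs and 56.0, 58.4 and 58.8 FPKM with BSA (log2 fold change -0.29, adjusted p = 0.502). PDK1, the kinase that keeps pyruvate out of the mitochondria, had 3.33, 3.95 and 4.16 FPKM with AGEs and 4.94, 4.74 and 4.43 FPKM with BSA (-0.25, adjusted p = 0.958). AK4, a mitochondrial adenylate kinase, had 2.61, 2.43 and 2.503 FPKM with AGEs and 4.23, 3.46 and 4.02 FPKM with BSA (-0.48, adjusted p = 0.408). In none of these did the groups overlap. BNIP3, a mitophagy receptor, had 7.76, 8.76 and 8.55 FPKM with AGEs and 9.25, 9.65 and 11.1 FPKM with BSA (-0.23, adjusted p = 0.958). VEGFA, the endothelial growth factor, had 2.38, 2.63 and 2.14 FPKM with AGEs and 2.73, 3.56 and 3.65 FPKM with BSA (-0.35, adjusted p = 0.958). These groups were also separate. The textbook target LDHA, lactate dehydrogenase, ran the other way at 56.3, 66.1 and 66.7 FPKM with AGEs and 61.5, 53.0 and 33.2 FPKM with BSA (0.39 ± 0.18 SE, adjusted p = 0.977). The BSA libraries spread widely and reached into the AGEs range. SLC2A1, the ubiquitous glucose transporter, also overlapped, at 17.2 ± 2.39 FPKM with AGEs and 18.4 ± 1.20 FPKM with BSA (SD, n = 3 each). Pseudogenes by name, 39 for BNIP3 and 6 each for AK4 and LDHA, could share the reads of these genes.

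**Figure D3:**
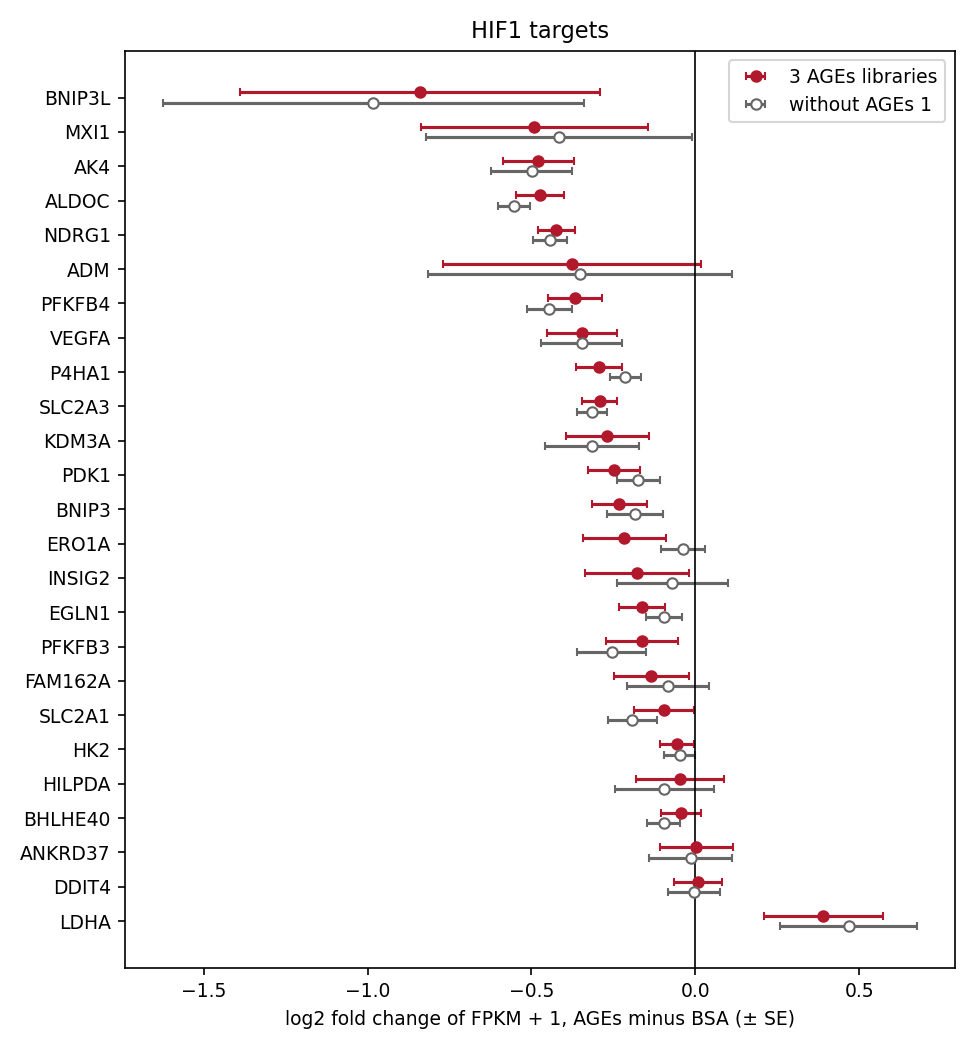
Log2 fold change of FPKM + 1, AGEs minus BSA, with its limma standard error, for the 25 HIF-1 targets tested, with all 3 AGEs libraries (filled) and without AGEs 1 (open). With all libraries 22 members lie below 0, and without AGEs 1 24 do, with LDHA on the other side in both.

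The promoters of these genes were searched for ACGTG, the core letters of the element that HIF-1 binds, on both strands of the 250 bases before the RefSeq start. It was found in 1862 of 7607 promoters of tested genes (24.5%) and in 13 of the 20 HIF-1 targets with a promoter in the RefSeq table (65.0%). The palindrome CACGTG, which holds ACGTG on both strands and is also the E-box of MYC, USF and MondoA, was in 724 promoters (9.5%) and in 6 of the 20 (30.0%). The AP-1 site TGANTCA was in 268 promoters (3.5%) and in 0 of the 20. TDG, the call with the smallest p, and the HIF-1 targets AK4 and BNIP3 each hold 1 CACGTG. They are printed so that the same letters can be seen in a called gene and in genes with lower values with AGEs, from RefSeq on GRCh38.p14, without annotated exons and with the match in capitals. A match describes the sequence and not a bound site. The share of 65.0% belongs to genes listed as HIF-1 targets and does not measure a response to AGEs. Among the 20, PFKFB4 and PDK1, which had lower values with AGEs, hold 0 ACGTG. LDHA, which ran the other way, holds 5. The called member NDRG1 is not among the 20. The windows are chr12:103965622-103965803 (plus strand) for TDG, chr1:65147302-65147548 (plus strand) for AK4 and chr10:131982014-131982173 (minus strand) for BNIP3, and the match begins 80, 93 and 134 bases before the RefSeq start of TDG, AK4 and BNIP3 in that order.
TDG: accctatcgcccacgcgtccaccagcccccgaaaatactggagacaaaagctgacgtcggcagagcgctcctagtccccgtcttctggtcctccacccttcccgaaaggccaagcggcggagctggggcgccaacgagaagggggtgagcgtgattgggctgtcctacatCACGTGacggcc
AK4: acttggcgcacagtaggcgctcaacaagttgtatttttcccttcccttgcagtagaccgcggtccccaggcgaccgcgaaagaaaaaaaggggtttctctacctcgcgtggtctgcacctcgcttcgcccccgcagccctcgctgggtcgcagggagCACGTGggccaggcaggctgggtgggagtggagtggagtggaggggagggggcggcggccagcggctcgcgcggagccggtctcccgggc
BNIP3: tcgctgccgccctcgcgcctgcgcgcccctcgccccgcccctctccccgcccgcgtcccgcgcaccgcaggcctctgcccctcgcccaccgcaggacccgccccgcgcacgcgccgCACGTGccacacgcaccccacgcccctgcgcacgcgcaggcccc

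Glycolytic enzymes as a whole lay close to 0. Of 25 entries 24 were tested, 16 had a fold change below 0 and the median was -0.04. At an unadjusted p under 0.05, 4 were lower (2.01% of all genes were) and 0 higher, and in 3 the groups did not overlap with AGEs lower (3.98% of all genes). Without AGEs 1 the median was -0.07, with 8 lower (3.23% of all genes) and 1 higher (4.02%). Besides ALDOC and PFKFB4, which are also in the HIF-1 list, these were PGK1 and GPI. PGK1, phosphoglycerate kinase, had 135, 128 and 127 FPKM with AGEs and 143, 144 and 143 FPKM with BSA (log2 fold change -0.14 ± 0.05 SE, adjusted p = 0.958). GPI, glucose phosphate isomerase, had 39.6, 31.7 and 33.2 FPKM with AGEs and 42.7, 40.1 and 37.3 FPKM with BSA, with AGEs 1 inside the BSA range. Of 11 glucose transporter entries 5 were tested, SLC2A1 and SLC2A3 among them, and 4 lay below 0 (median -0.10, and -0.19 without AGEs 1). The member above 0, SLC2A4RG, is a transcriptional regulator and not a transporter. SLC2A14 was listed at 0, 0 and 0.972 FPKM with AGEs and at 0.641, 2.36 and 1.95 FPKM with BSA, so the groups overlapped. It is a close copy of SLC2A3, and how reads were divided between them is uncertain. TXNIP and ARRDC4, the arrestins that MondoA induces when sugar phosphates build up, were not called. TXNIP had 207, 216 and 221 FPKM with AGEs and 221, 217 and 234 FPKM with BSA (-0.06 ± 0.05 SE, adjusted p = 0.977). ARRDC4 had 4.41, 5.34 and 4.52 FPKM with AGEs and 5.95, 5.59 and 5.32 FPKM with BSA (-0.20 ± 0.09 SE, adjusted p = 0.977), overlapping in 1 AGEs library.

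Genes that bind or clear AGEs were measured in 19 of 27 entries, 14 of them with a fold change above 0 and a median of 0.04. At an unadjusted p under 0.05, 2 were higher (2.73% of all genes were) and 0 lower. The receptor gene AGER itself was low, at 1.71, 2.24 and 1.96 FPKM with AGEs and 1.75, 1.57 and 1.62 FPKM with BSA. The groups overlapped through AGEs 1 (log2 fold change 0.16 ± 0.09 SE, adjusted p = 0.977). HMGB1, a chromatin protein that becomes a RAGE ligand once released, had 45.7, 43.9 and 52.0 FPKM with AGEs and 34.4, 31.0 and 36.9 FPKM with BSA (0.46 ± 0.10 SE, adjusted p = 0.373). The groups did not overlap, and 48 genes annotated as HMGB1 pseudogenes by name could share its reads. HMGB1 stood at 48.7 ± 5.30 FPKM with glucose alone and 40.8 ± 3.03 FPKM with AGEs and glucose (SD, n = 3 each). The difference of AGEs from glucose alone was -0.04 ± 0.10 (SE, limma adjusted p = 0.915). The higher level was thus not particular to AGEs. OLR1, a scavenger receptor for oxidised lipoprotein, had 1.04, 1.45 and 1.45 FPKM with AGEs and 0.954, 0.362 and 0.944 FPKM with BSA (0.42 ± 0.14 SE, adjusted p = 0.958). Every AGEs library was above every BSA library for OLR1. The scavenger receptor CD36 averaged 1.37 ± 0.359 FPKM with AGEs and 1.37 ± 0.374 FPKM with BSA (SD, n = 3 each). DIAPH1, the formin that carries RAGE signals, averaged 36.3 ± 3.82 FPKM with AGEs and 36.3 ± 3.51 FPKM with BSA. The means of these were the same at this precision. The ligand subunit S100A9 was abundant and overlapped, at 395 ± 19.4 FPKM with AGEs and 366 ± 31.3 FPKM with BSA. GLO1, glyoxalase 1, which detoxifies the AGE precursor methylglyoxal, had 292, 353 and 351 FPKM with AGEs and 351, 337 and 374 FPKM with BSA. Only AGEs 1 was below the BSA range for GLO1.

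Inflammatory genes were divided, with more below 0 than above. Of 22 NF-kappaB subunits and targets 20 were tested and 13 had a fold change below 0 (median -0.04), with 2 lower (2.01% of all genes were) and 0 higher at an unadjusted p under 0.05. Without AGEs 1, 11 lay below 0, the median was -0.08 and 4 were lower (3.23% of all genes). ICAM1, an adhesion molecule and NF-kappaB target, had 51.8, 43.6 and 45.9 FPKM with AGEs and 55.2, 55.3 and 52.0 FPKM with BSA (-0.20 ± 0.07 SE, adjusted p = 0.958). TNFAIP3, the feedback inhibitor A20, had 11.1, 9.50 and 9.96 FPKM with AGEs and 12.2, 12.1 and 11.1 FPKM with BSA (-0.20, adjusted p = 0.958). Both were separate between the groups by a narrow margin. The subunit RELA had 13.8, 12.4 and 10.0 FPKM with AGEs and 7.18, 9.84 and 9.84 FPKM with BSA (0.39 ± 0.20 SE, adjusted p = 0.977). It was separate too, with AGEs higher and by a margin as narrow. Of 38 cytokine and chemokine entries 23 were tested and 16 lay below 0 (median -0.06). At an unadjusted p under 0.05, 2 were lower (2.01% of all genes were) and 1 higher (2.73%). The higher one, CXCL16, a chemokine that is also made in a membrane-bound form, had 7.19, 6.80 and 6.18 FPKM with AGEs and 5.61, 6.20 and 5.48 FPKM with BSA (0.19 ± 0.09 SE, adjusted p = 0.977). Its groups overlapped, and it shares exonic positions with MED11. CXCL8, the main neutrophil attractant, had 76.1, 104 and 107 FPKM with AGEs and 112, 125 and 125 FPKM with BSA (-0.35 ± 0.12 SE, adjusted p = 0.958). AGEs 1 was the lowest, and without it the fold change was -0.19. IL1B, interleukin 1 beta, overlapped at 8.19 ± 0.538 FPKM with AGEs and 9.56 ± 1.07 FPKM with BSA (SD, n = 3 each). Immediate-early genes had 15 of 21 tested members below 0 (median -0.06, and -0.03 without AGEs 1). EGR1, a growth-response transcription factor, stood at 4.98, 5.15 and 5.45 FPKM with AGEs and 7.03, 6.399 and 6.41 FPKM with BSA (-0.30 ± 0.09 SE, adjusted p = 0.958). Glucose alone, with no AGEs, was set against the same BSA libraries. Its medians were -0.09 for the NF-kappaB list, -0.11 for cytokines and chemokines and -0.16 for immediate-early genes. For AGEs with glucose they were -0.09, -0.07 and -0.10 in that order. Medians below 0 in these lists were thus not particular to AGEs.

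The effector genes of neutrophils showed small differences. All 9 NADPH oxidase entries were tested, with 5 above 0, a median of 0.01, 1 higher (2.73% of all genes were) and 1 lower (2.01%) at an unadjusted p under 0.05. Without AGEs 1 neither count had a member left. CYBA, the p22 subunit, had 79.1, 76.0 and 68.4 FPKM with AGEs and 63.9, 58.5 and 68.0 FPKM with BSA (log2 fold change 0.23 ± 0.09 SE, adjusted p = 0.975). RAP1A, a small GTPase found with the oxidase, had 18.8, 25.4 and 30.8 FPKM with AGEs and 31.1, 30.3 and 32.4 FPKM with BSA (-0.34 ± 0.15 SE, adjusted p = 0.977). For RAP1A the AGEs libraries spread widely and AGEs 3 reached into the BSA range. Without AGEs 1 the fold change was -0.15. MPO, the myeloperoxidase of azurophil granules, had 134, 110.1 and 108 FPKM with AGEs and 111, 115 and 102 FPKM with BSA. Its fold change of 0.09 ± 0.08 (SE; adjusted p = 0.977) rested on AGEs 1 and was -0.01 without it. Azurophil granule genes had 10 of 15 tested members above 0 (median 0.05) and genes of specific and gelatinase granules 5 of 8 (median 0.08). Among 29 tested receptors and adhesion genes 18 lay below 0 (median -0.03). FPR1 had 4.89, 5.64 and 4.81 FPKM with AGEs and 4.07, 4.24 and 4.53 FPKM with BSA (0.21 ± 0.08 SE, adjusted p = 0.958). The inhibitory Fc receptor FCGR2B had 10.6, 12.04 and 12.02 FPKM with AGEs and 12.9, 13.1 and 13.8 FPKM with BSA (-0.19 ± 0.07 SE, adjusted p = 0.958). Both were separate between the groups.

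The relatives of the called genes were examined in the same way. Base excision repair, the pathway of TDG, had 33 of 35 entries tested, 26 with a fold change above 0 and a median of 0.06. In 5 members the groups did not overlap with AGEs higher (4.82% of all genes), and 2 were higher at an unadjusted p under 0.05 (2.73% of all genes). TDG, for which the list was chosen, is 1 of both, and HMGB1, a cofactor of the pathway, is the other at an unadjusted p under 0.05. The mean log2 deviation of the members, TDG included, was 0.06, 0.01 and 0.03 in the AGEs libraries and -0.08, -0.05 and -0.07 in the BSA libraries, so these did not overlap. The AGEs libraries were also above the BSA libraries in this mean for azurophil granule genes, specific and gelatinase granule genes, MYC targets, heat shock genes, DNA replication genes and lysosome genes, so the separation is not particular to base excision repair. MPG, a glycosylase for alkylated bases, had 26.9, 22.6 and 22.7 FPKM with AGEs and 21.2, 21.9 and 21.0 FPKM with BSA (0.16 ± 0.08 SE, adjusted p = 0.977, and 0.08 without AGEs 1). Calcium pumps and store-entry genes, the company of ATP2B4, split evenly, with 12 of 23 above 0 and a median of 0.02 (-0.02 without AGEs 1). ATP2B4 was the 1 member with an unadjusted p under 0.05 (2.73% of all genes were higher at that level). TRPV2, a calcium channel, overlapped at 9.25 ± 1.19 FPKM with AGEs and 8.12 ± 0.242 FPKM with BSA (SD, n = 3 each), with a fold change of 0.16, and 0.08 without AGEs 1.

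Most genes of energy and protein production had a fold change slightly above 0. Nuclear-encoded oxidative phosphorylation genes had 66 of 76 members above 0 and a median of 0.09, with 5 higher (2.73% of all genes were) and 0 lower (2.01%) at an unadjusted p under 0.05. The library means of their log2 deviation were -0.15, 0.12 and -0.02 with AGEs and -0.10, -0.22 and -0.01 with BSA, which overlap. Without AGEs 1 the median of these genes was 0.17. Against the same BSA libraries it was 0.17 for glucose alone and 0.17 for AGEs with glucose. A median above 0 in this list was thus not particular to AGEs. NDUFB11, a subunit of complex I, had 49.4, 48.7 and 46.3 FPKM with AGEs and 41.0, 39.1 and 43.9 FPKM with BSA (0.22 ± 0.07 SE, adjusted p = 0.958). ATP5B, the beta subunit of the mitochondrial ATP synthase, had 179, 183 and 176 FPKM with AGEs and 158, 160.2 and 134 FPKM with BSA (0.25 ± 0.09 SE, adjusted p = 0.958). Both were separate between the groups. Of the 13 mitochondrially encoded genes 0 had a fold change above 0, with a median of -0.04 and 0 at an unadjusted p under 0.05. Without AGEs 1, 3 of the 13 were above 0. MT-CO1, a subunit of cytochrome oxidase, had 6337, 5769.9 and 5998 FPKM with AGEs and 6578, 6358 and 6094 FPKM with BSA, which overlap.

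Cytosolic ribosomal proteins had 67 of 77 tested members above 0 at a median of 0.05, and 1 was higher at an unadjusted p under 0.05 (2.73% of all genes were). Their mean log2 deviation was -0.04, 0.05 and -0.03 in the AGEs libraries and -0.04, -0.12 and -0.01 in the BSA libraries, which overlap. The higher member, RPL10, had 256, 219.8 and 233 FPKM with AGEs and 216, 208 and 214 FPKM with BSA. Its groups were separate, with a fold change of 0.15, and 0.09 without AGEs 1. MYC targets and ribosome biogenesis genes had 28 of 37 above 0 (median 0.07), with 3 higher (2.73% of all genes were) and 0 lower at an unadjusted p under 0.05, and 5 higher (4.02%) and 1 lower (3.23%) without AGEs 1. SRM, spermidine synthase, had 35.6, 37.0 and 34.1 FPKM with AGEs and 29.1, 27.4 and 29.6 FPKM with BSA (log2 fold change 0.30 ± 0.09 SE, adjusted p = 0.958). Proteasome genes had 27 of 38 above 0 at a median of 0.05, and 34 of 38 at a median of 0.12 without AGEs 1. Against the same BSA libraries, glucose alone had medians of 0.09 for ribosomal proteins, 0.19 for MYC targets and 0.12 for proteasome genes. For AGEs with glucose they were 0.08, 0.05 and 0.09 in that order. Medians above 0 in these lists were thus not particular to AGEs. PSMB9, a subunit of the immunoproteasome, had 14.2, 14.9 and 14.1 FPKM with AGEs and 11.6, 12.1 and 13.0 FPKM with BSA (0.21 ± 0.08 SE, adjusted p = 0.958).

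Among stress and lipid genes, antioxidant enzymes and NRF2 targets had 19 of 29 above 0 (median 0.07), with 2 higher (2.73% of all genes were) and 0 lower at an unadjusted p under 0.05. Without AGEs 1 their median was 0.04, with 3 higher (4.02%) and 2 lower (3.23%). GSTP1, a glutathione transferase, had 160.2, 154 and 144 FPKM with AGEs and 136, 130.2 and 120.01 FPKM with BSA (log2 fold change 0.24 ± 0.07 SE, adjusted p = 0.958). Cholesterol synthesis had 15 of 25 above 0 (median 0.03), 4 of them higher at an unadjusted p under 0.05 (2.73% of all genes were). Without AGEs 1, 2 were higher (4.02%) and 1 lower (3.23%). Against the same BSA libraries, glucose alone had medians of 0.17 for cholesterol synthesis and 0.10 for antioxidant enzymes and NRF2 targets. For AGEs with glucose they were 0.13 and 0.08 in that order, so medians above 0 here were not particular to AGEs. Lysosome and V-ATPase genes had 24 of 37 above 0 (median 0.05), with 3 higher at an unadjusted p under 0.05 (2.73% of all genes were). ATP6V0B, a membrane subunit of the proton pump, had 34.0, 37.0 and 33.9 FPKM with AGEs and 30.3, 26.3 and 31.7 FPKM with BSA (0.24 ± 0.08 SE, adjusted p = 0.958). The groups did not overlap in GSTP1 or ATP6V0B. Endoplasmic reticulum stress genes (11 of 23 above 0, median -0.04), ATF4 targets (12 of 20, median 0.03) and type I interferon genes (13 of 28, median -0.01) were divided. Heat shock genes (16 of 24, median 0.04), DNA replication and cell cycle genes (25 of 40, median 0.04), BCL2 family genes (10 of 18, median 0.04) and retinoic acid response genes (5 of 11, median -0.02) also lay close to 0. ISG15, an interferon-induced ubiquitin-like protein, had 43.6, 42.7 and 37.0 FPKM with AGEs and 28.9, 28.3 and 38.7 FPKM with BSA (0.36 ± 0.13 SE, adjusted p = 0.958), overlapping through BSA 3. PMAIP1, the death-promoting BCL2 family member NOXA, had 64.0, 97.6 and 107 FPKM with AGEs and 82.8, 34.9 and 53.6 FPKM with BSA (0.69 ± 0.27 SE, adjusted p = 0.967), with AGEs 1 inside the BSA range.

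**Figure D4:**
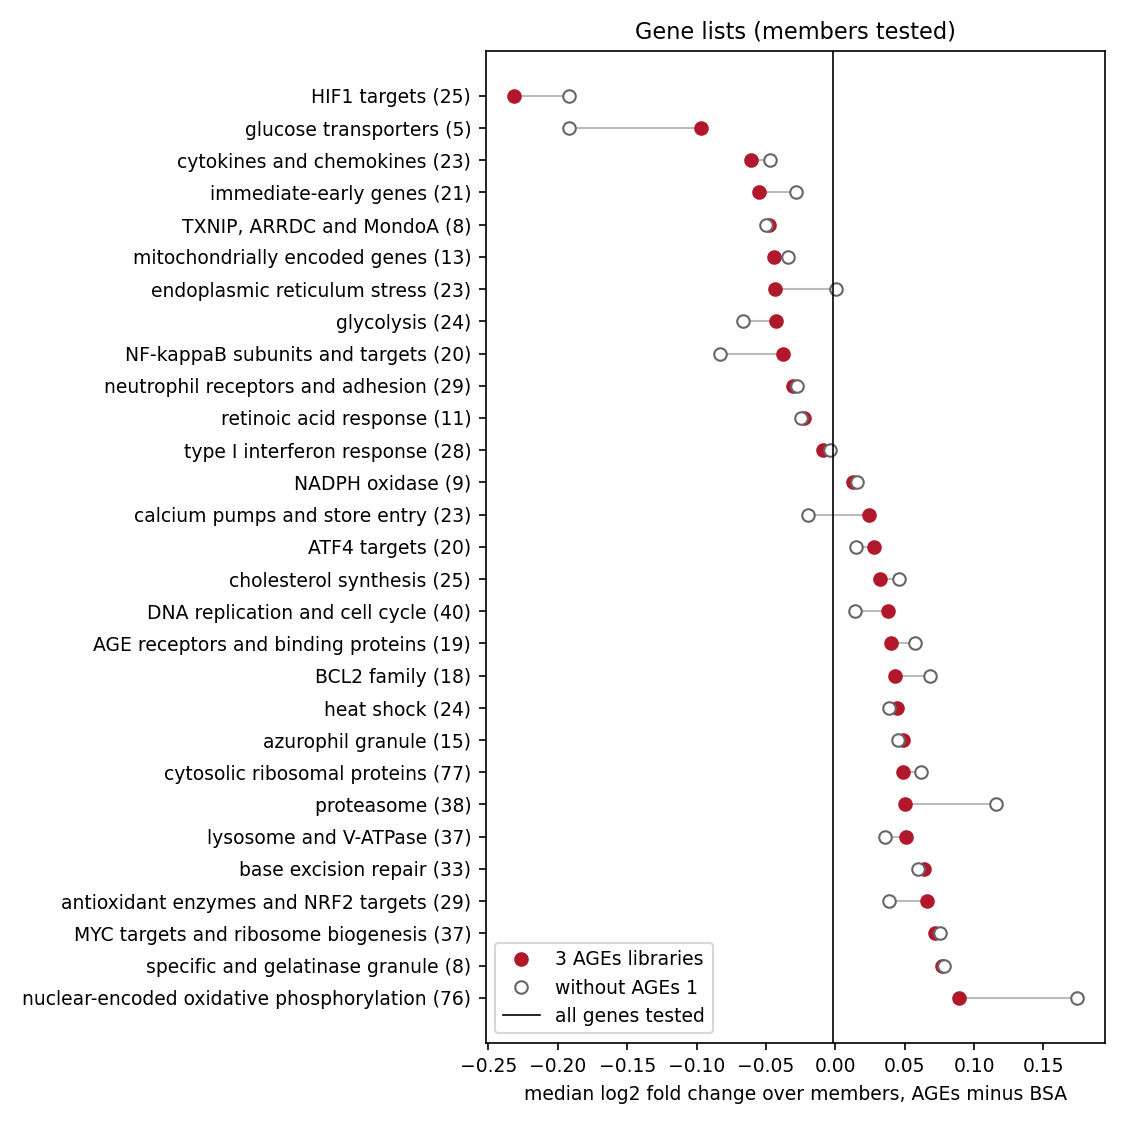
Median log2 fold change of FPKM + 1, AGEs minus BSA, over the tested members of each gene list (number of members in brackets), with all 3 AGEs libraries (filled) and without AGEs 1 (open), beside the median of all genes (line). HIF-1 targets are lowest with all libraries, at -0.23, and stand at -0.19 without AGEs 1, as do glucose transporters, and oxidative phosphorylation genes are at 0.09 and 0.17.

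Genes that came closest to a call without passing included enzymes and transporters outside these lists. DCXR, the dicarbonyl and xylulose reductase, had 10.0, 11.6 and 9.82 FPKM with AGEs and 7.11, 6.12 and 7.68 FPKM with BSA (log2 fold change 0.53 ± 0.09 SE, adjusted p = 0.145). SIGIRR, a brake on interleukin 1 and Toll-like receptor signals, had 13.7, 12.4 and 11.3 FPKM with AGEs and 9.38, 8.51 and 9.52 FPKM with BSA (0.40 ± 0.09 SE, adjusted p = 0.373). STOML2, a scaffold protein of the mitochondrial inner membrane, had 32.7, 29.7 and 36.5 FPKM with AGEs and 28.0, 25.4 and 23.4 FPKM with BSA (0.35 ± 0.08 SE, adjusted p = 0.502). All 3 had groups that did not overlap, AGEs higher. With glucose alone the means were 7.91 FPKM for DCXR, 12.2 FPKM for SIGIRR and 39.3 FPKM for STOML2. With AGEs and glucose they were 8.79, 12.1 and 30.0 FPKM in that order. These means were also above every BSA library, so higher values were not particular to AGEs alone. On the other side, STS, the steroid sulfatase, had 5.07, 5.43 and 5.68 FPKM with AGEs and 7.87, 8.38 and 7.66 FPKM with BSA (-0.49 ± 0.08 SE, adjusted p = 0.145). SLC6A8, the creatine transporter, had 2.01, 1.28 and 1.35 FPKM with AGEs and 3.34, 2.58 and 3.50 FPKM with BSA (-0.71 ± 0.12 SE, adjusted p = 0.145). It shares exonic positions with PNCK. CTNND1, the p120 catenin of cell junctions, had 2.17, 1.82 and 2.08 FPKM with AGEs and 4.18, 3.17 and 4.70 FPKM with BSA (-0.72 ± 0.12 SE, adjusted p = 0.145). In these 3 every AGEs library lay below every BSA library. With glucose alone the means were 6.93 FPKM for STS, 1.99 FPKM for SLC6A8 and 2.38 FPKM for CTNND1. With AGEs and glucose they were 5.97, 1.88 and 2.37 FPKM in that order. These means were also below every BSA library, so lower values were not particular to AGEs alone. DENND5A, an activator of Rab GTPases, had 4.997, 4.30 and 4.57 FPKM with AGEs and a tight 6.27, 6.32 and 6.31 FPKM with BSA (-0.38 ± 0.07 SE, adjusted p = 0.187).

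Some genes with large fold changes also took widely different levels within a group of the series. WDR6 had 16.9, 18.2 and 20.7 FPKM with AGEs and 4.93, 7.21 and 5.59 FPKM with BSA (log2 fold change 1.51 ± 0.33 SE, adjusted p = 0.408), and it shares exonic positions with DALRD3 and P4HTM. C9orf69 had 16.0, 13.4 and 14.1 FPKM with AGEs and 4.70, 3.39 and 2.85 FPKM with BSA (1.75 ± 0.32 SE, adjusted p = 0.194). MDFIC, an inhibitor of MyoD family factors, had 2.00, 2.10 and 2.07 FPKM with AGEs and 5.86, 6.31 and 6.73 FPKM with BSA (-1.25 ± 0.22 SE, adjusted p = 0.151). Each kept apart between AGEs and BSA but was divided among the 3 libraries with AGEs and glucose, whose SD was 5.83, 3.42 and 1.93 FPKM for WDR6, C9orf69 and MDFIC in that order. With glucose alone WDR6 had 10.6, 9.97 and 6.53 FPKM and C9orf69 had 6.61, 4.22 and 11.5 FPKM. Some of these values lay between the AGEs and BSA levels. How reads were assigned to transcripts is not given in the sources used here, and whether that sets such levels was not tested. The fit of all 12 libraries takes its spread from those libraries too. In a fit of only the AGEs and BSA libraries these 3 genes passed, with adjusted p = 0.0241, 0.0241 and 0.0109.

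**Figure D5:**
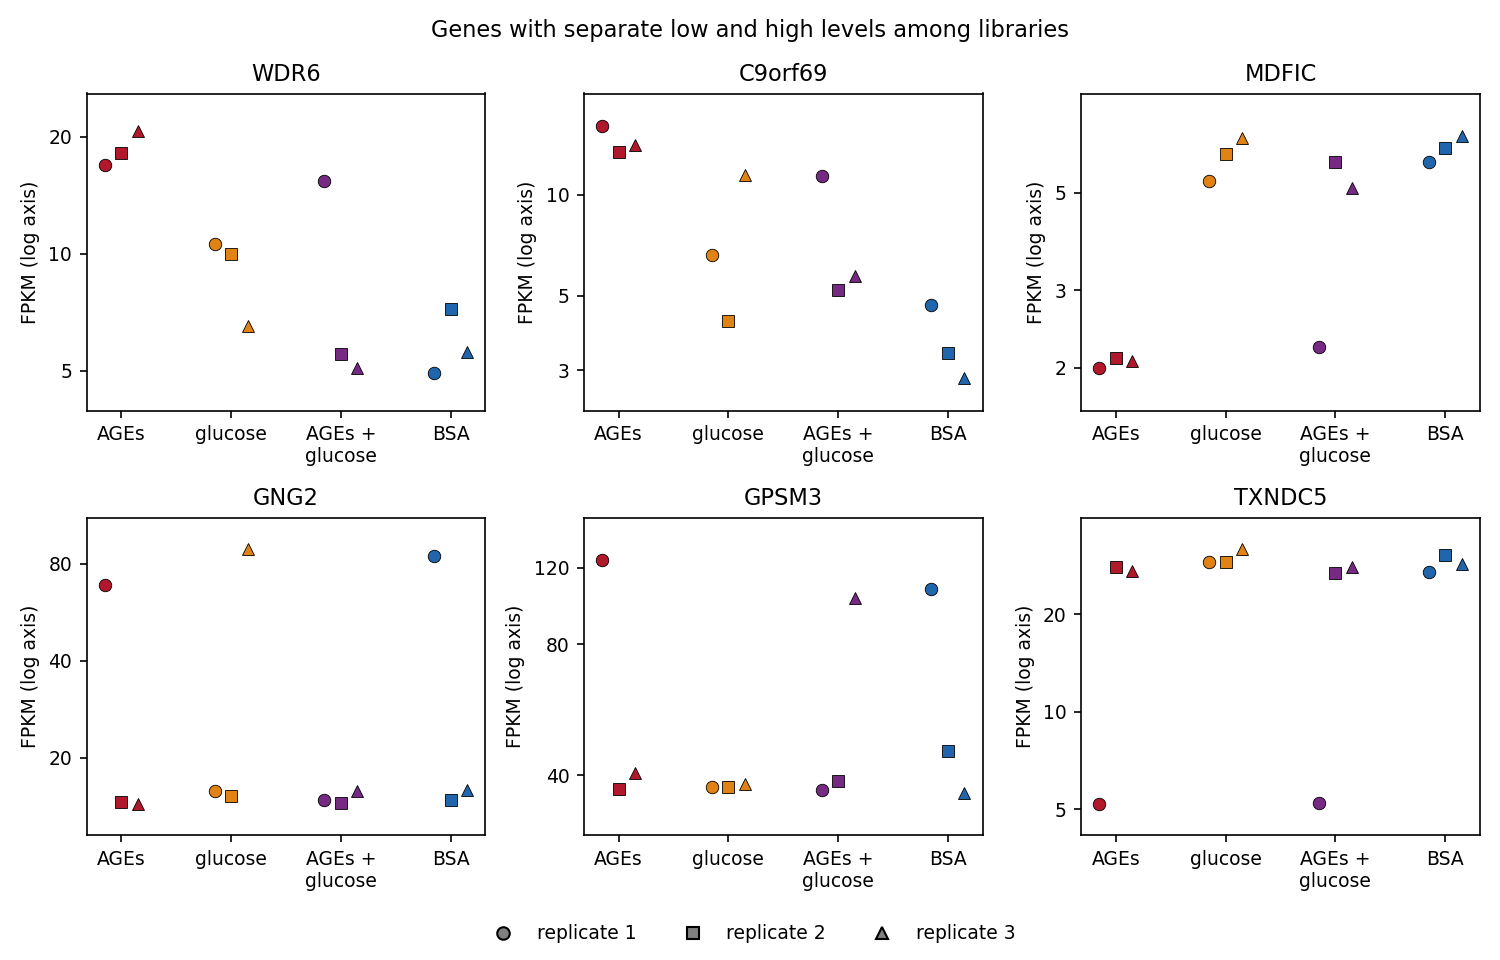
FPKM on a log axis of 6 genes in each of the 12 libraries, by group. WDR6, C9orf69 and MDFIC divide AGEs from BSA and also split the libraries with AGEs and glucose, while GNG2, GPSM3 and TXNDC5 set AGEs 1 apart from AGEs 2 and 3 (68.9 against 14.6 and 14.4 FPKM for GNG2).

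Single genes showed the gap between AGEs 1 and the other AGEs libraries. C1GALT1C1, a chaperone of O-glycan synthesis, had 1.41, 16.8 and 18.4 FPKM with AGEs and 14.1, 14.8 and 14.6 FPKM with BSA. TXNDC5, a disulfide isomerase of the endoplasmic reticulum, had 5.19, 27.9 and 27.2 FPKM with AGEs and 27.0, 30.4 and 28.5 FPKM with BSA, and 1 library with AGEs and glucose was as low, at 5.22 FPKM. AGEs 1 was far below its group in both of these genes. GNG2, a G protein gamma subunit, had 68.9, 14.6 and 14.4 FPKM with AGEs and 85.0, 14.8 and 15.8 FPKM with BSA. GPSM3, a regulator of G protein signalling, had 124.8, 37.1 and 40.4 FPKM with AGEs and 107, 45.4 and 36.4 FPKM with BSA. For the last pair of genes a BSA library shared the high level, so that AGEs 1 was not alone in it. TXNDC5 shares exonic positions with the readthrough gene BLOC1S5-TXNDC5, and GPSM3 with NOTCH4. Without AGEs 1 the fold change was 0.26 for C1GALT1C1 and -0.53 for GPSM3, against -0.72 and 0.03 with it.

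Without AGEs 1 limma called 2 genes higher (0.0205%) and 4 lower (0.041%). At an unadjusted p under 0.05 there were 707 genes (7.25%, against 4.74% with it). A rise was not particular to AGEs 1, as 660 genes reached this without AGEs 3, 570 without glucose 3 and 522 without AGEs 2. Leaving out any other library gave 350 to 480. TDG stayed called at a log2 fold change of 0.97 (adjusted p = 0.00247), ATP2B4 at 0.90 (adjusted p = 0.00441) and NDRG1 at -0.44 (adjusted p = 0.019). The added genes were ALDOC, SLC6A8 (adjusted p = 0.0332) and the zinc finger gene ZKSCAN8. With all libraries kept and weighted, 2 of 9751 genes were called higher and 8 lower. The 8 were NDRG1, ALDOC, SLC2A3, PFKFB4, SLC6A8, STS, DENND5A and ZKSCAN8. The weights come from these same data. With them 816 genes had an unadjusted p under 0.05, against 462 without, so more genes reached low p-values in general. NDRG1, ALDOC, SLC2A3 and PFKFB4 are HIF-1 targets of the list above. The median of the HIF-1 targets was -0.19 without AGEs 1, with 24 of 25 below 0 and 10 lower at an unadjusted p under 0.05 (3.23% of all genes were).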

How the data were processed

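RNA of HL-60-derived neutrophil-like cells was sequenced in 12 libraries, 3 in each of 4 groups. The authors deposited gene-level FPKM, per the file headers. Tools listed in the submitters' processing notes are STAR 2.5.2b, HISAT2 2.0.5, StringTie and cutadapt, and the build is hg19, without their roles. The strand setting is not given in the sources used here, so genes that share positions cannot be told apart. Of the 10465 rows, those with at least 1 FPKM in at least 3 libraries (9751) were tested as log2(FPKM + 1), pseudocount 1. All 12 libraries entered 1 limma 3.58.1 fit of group means (R 4.3.3) with an intensity trend and robust moderation, and p-values were adjusted by Benjamini-Hochberg. The fit was tested on simulated data. No column was left out. FPKM keeps no counts, so no counting interval was computed.

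Members and lists were chosen with earlier results of these data known. Genes named are the called genes, the 10 smallest p per direction, up to 4 per list, and AGER, TXNIP, ARRDC4 and MPO, the members of the AGE-binding list and the 5 largest gaps of AGEs 1 per sign. Not all are printed. Genes outside this rule, named after their values were seen, are BNIP3, VEGFA, LDHA, P4HA1, PDK1, AK4 and ZKSCAN8. Lists have no test. Symbols of 101 genes were looked up in GENCODE v29 on GRCh38: 99 matched, 25 share exonic positions with another coding gene and 19 have pseudogenes by name. Replicate numbers were not taken to pair the groups, as the labels do not say so. Of 18 correlations between same-numbered libraries 2 exceeded 0.1. Alternatives left out each library, the filter, the trend or the robust step, fitted only the AGEs and BSA libraries, scaled by trimmed mean of M values (TMM) or quantiles, weighted libraries, added the replicate block, required a mean of 5 FPKM, or used a pseudocount of 0.1.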

Additional observations from a re-analysis of the deposited data

Results flagged for a closer look

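For TDG, the difference of AGEs from BSA was larger than that of AGEs with glucose from glucose alone. AGEs minus BSA, less AGEs with glucose minus glucose alone, was 1.05 ± 0.11 (SE) on the log2(FPKM + 1) scale (limma adjusted p = 0.0148). TDG stood at 16.0 FPKM with AGEs, 17.9 FPKM with glucose, 16.5 FPKM with AGEs and glucose and 7.89 FPKM with BSA. Only this gene was called in that test (0.0103% of those tested). The glucose group is not labelled as receiving BSA, so the absence of BSA and the presence of glucose cannot be told apart in it. The same term for ATP2B4 was 0.87 ± 0.12 (adjusted p = 0.0555) and for NDRG1 -0.44 (adjusted p = 0.223).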

How the results depend on the processing

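TDG and ATP2B4 were called under every alternative run, and 2 genes were called higher in most. A fit of only the AGEs and BSA libraries gave 5 higher and 2 lower. The number called lower was 0 with TMM scaling and with no intensity trend, and 8 with library weights. The replicate block gave 2 higher and 0 lower, but the labels do not say whether replicate numbers pair the libraries. Leaving out each library gave 2 to 3 genes higher and 0 to 4 lower. NDRG1 kept its direction throughout, with an adjusted p of 0.164 with TMM, 0.0709 without the trend, 0.421 with only the AGEs and BSA libraries and 0.202 with the block. Of 2203 values of named genes under alternatives, 2158 kept their direction and side of the threshold, 14 lost a call, 15 gained one and 16 changed sign. The sign changed in genes that are not called. With 1 library left out, MPO ran from -0.00675 (without AGEs 1) to 0.147, C1GALT1C1 from -1.24 to 0.26 (without AGEs 1), GNG2 from -0.88 (without AGEs 1) to 0.65 (without BSA 1), GPSM3 from -0.53 (without AGEs 1) to 0.485 (without BSA 1), DIAPH1 from -0.066 to 0.0861 and CD36 from -0.11 to 0.14. Library weights gave 0.0818 for C1GALT1C1 and -0.575 for GPSM3, and TMM gave 0.0041 for DIAPH1. Of 743 list medians 44 moved beyond the spread between libraries. The weight of AGEs 1 was 0.138 to 0.221 under other settings, and 0.359 and 0.345 without AGEs 2 and without AGEs 3. The causes were not tested. Unknown depth limits genes near 1 FPKM most.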
